A study of Mus musculus with 21 samples.

Results

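In cultures enriched for notochord progenitor-like cells (NotoP diff), 10180 of 22684 Foxa2 ChIP-seq peaks lay between protein-coding genes, away from promoters and apart from every peak of the T-box factor T (brachyury). These regions were chosen by 3 values of the peak lists: a Foxa2 peak had to share 0 bp with the T peaks of the same cultures, its summit had to lie more than 5000 bp from the 5′ end of each protein-coding gene, and that summit had to fall outside all protein-coding gene bodies of the GENCODE vM21 annotation (mm10). They made up 47.8% of the 21292 Foxa2-only peaks, the others being 9503 distal peaks inside genes and 1609 peaks at promoters. A further 1392 Foxa2 peaks overlapped a T peak, 640 of them between genes. Of 6875 T peaks, 2461 met the same rule with the factors exchanged and are called T-only regions here.

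The study mapped regulatory elements of the mouse notochord with chromatin and RNA sequencing of embryonic and cultured cells. The cultures came from a clonal F1G4 (C57BL/6N x SV129) embryonic stem cell line that carried *TRE::Foxa2-IRES-EGFP* at *Rosa26*, a *Noto::H2B-mTurquoise* BAC and a *T* BAC that drives H2B-mCherry and the irTA transactivator. All cultures received bFGF at 10 ng/ml over days 1 to 3 and CHIR99021 from day 2 on, until day 3 for NMP diff and day 4 for NotoP diff and MP diff. Doxycycline at 1 ng/ml over days 2 to 4 switched on the *Foxa2* transgene in the NotoP diff cultures, in cells with an active *T* BAC, whereas the MP diff (mesoderm progenitor) and NMP diff (neuromesodermal progenitor) cultures had no doxycycline. Foxa2 (rabbit polyclonal antibody) and T (goat antibody) were precipitated from unsorted NotoP diff cultures, so fewer binding cells and less binding per cell cannot be told apart, while RNA came from cells sorted by their reporters. Embryonic RNA came from E8.5 and E9.5 embryos derived from stem cells with *T::H2B-Venus*, *Noto::H2B-mCherry* and *Foxa2::H2B-mTurquoise* BACs: notochord progenitors (NotoP, positive for all 3 reporters) and mesoderm progenitors (MP, positive for T alone) from caudal ends, and trunk notochord. Each condition was 1 library, so values are given without a test or a spread between replicates, and neither peaks nor genes stand in for replicates.

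Foxa2 is a forkhead factor that can bind its sites within closed chromatin and is therefore called a pioneer factor. It is required for the node and the notochord and is also active in the floor plate and the definitive endoderm. Distal elements between genes often act on a promoter far away, so neither the nearest gene nor a flanking gene is known to be the target of any region described here.

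The sorted NotoP diff cells carried notochord transcripts. *T* stood at 375 FPKM (fragments scaled to transcript length and library size), *Nog* at 40.1, *Shh* at 30.2, *Chrd* at 28.5, *Noto* at 22.5 and *Foxa1* at 19.2, while MP diff cells had 25.8 FPKM of *T*, 1.83 of *Nog*, 0.186 of *Chrd* and 0.0955 of *Foxa1*, and there *Shh* and *Noto* were listed at 0. *Foxa2* stood at 95.5 and 1.22 FPKM, and the first value includes the transgene. NMP diff cells had 406 FPKM of *T*, so that *T* alone did not set the notochord culture apart from them. The NotoP diff cells were sorted as positive and the MP diff cells as negative for the *Noto* reporter, so *Noto* restates the sort. The notochord label thus held for *Nog*, *Shh*, *Chrd* and *Foxa1*, yet transcripts of genes listed for other lineages were present in the same library. Of 19654 genes tested, 55.5% reached 1 FPKM in this library and 52.7% did so in the MP diff library. That share is over all genes and is not a background for genes restricted to a lineage. Whether cells of other lineages were present was not tested by the counts of listed genes. Of 18 paraxial mesoderm genes, 12 reached 1 FPKM in NotoP diff cells, with a summed level of 172 FPKM and *Dll1* as the most abundant at 41.5. In MP diff cells 17 of them did, summing to 333 FPKM, and *Tbx6* was at 21.3 FPKM on the notochord and 33.2 on the mesoderm side. Of 10 pluripotency genes, 4 reached 1 FPKM, summing to 20.6 FPKM with *Pou5f1* at 10.7, and in MP diff cells 5 genes summed to 21.0 FPKM. Of 19 endoderm and anterior mesendoderm genes, 11 reached 1 FPKM in NotoP diff cells, summing to 561 FPKM, with the keratin gene *Krt18* as the most abundant at 212, *Sox17* at 7.46 and *Hnf4a* listed at 0. In MP diff cells 10 of them did, summing to 110 FPKM, with *Sox17* at 0.545. Genes of this list were also abundant in trunk notochord, which summed to 1447 FPKM at E8.5. The part of such cells in the Foxa2 peaks, which came from unsorted cultures, was not tested.

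The regions were mid-strength among Foxa2 peaks. Their fold enrichment at the summit, the ratio over local background written by the peak caller (whether a control library entered it is not stated in the methods), had a median of 7.20 (quartiles 5.56 and 9.83, range 3.03 to 25.4). Foxa2-only peaks inside genes had a median of 7.03 and those at promoters 6.66, while shared peaks between genes had 8.99. The median width was 404 bp and the median −log10 q was 8.30, with 505 as the highest. Peak strength did not grade with distance from genes: the median was 7.08 at 5 to 10 kb from the nearest 5′ end and 7.26 beyond 500 kb. The region with the highest −log10 q, chr4:99315496-99316260, lay between *Gm12689* and *Foxd3*, which encodes a forkhead factor of pluripotent and neural crest cells, 19.9 kb from the nearest 5′ end, with a fold enrichment of 21.9.

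At the distance threshold, the regions just inside lay 5013 bp upstream of *Cpne2* (fold enrichment 7.07), 5014 bp upstream of *Ier2* (7.01) and 5021 bp upstream of *Btrc* (9.27). The peaks just excluded lay 5000 bp upstream of *Col9a1* (6.43), 4998 bp upstream of *Myb* (4.61) and 4991 bp upstream of *Tapt1* (11.0). Enrichment therefore overlapped across the threshold. On the T side, 42 regions lay within 500 bp of a T peak without touching it, the closest at 4 bp, and 345 (3.39%) lay within 5 kb. The median gap to the nearest T peak was 124 kb. A missing T peak does not show that T was unbound at a region.

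Most of these regions were remote from promoters, as was most of the sequence that the rule admits. The nearest protein-coding 5′ end was a median of 109 kb away (95% interval 106 to 113, quartiles 35.3 and 285), and 5317 regions (52.2%) lay more than 100 kb away. There were 334 regions beyond 1 Mb, the farthest at 2588 kb. Of intergenic sequence, 1522 Mb met the same rule. At 10 to 50 kb lay 26.8% of the regions and 23.5% of that sequence, at 100 to 500 kb 39.4% and 39.3%, and beyond 500 kb 12.8% and 17.8%. Per megabase of eligible sequence, the regions numbered 7.06 at 5 to 10 kb, 7.61 at 10 to 50 kb, 7.31 at 50 to 100 kb, 6.72 at 100 to 500 kb and 4.80 beyond 500 kb. The density of the regions was thus nearly flat over the first 500 kb and lower only in the remotest sequence. Eligible sequence included chromosomes X (114 Mb) and Y (83.7 Mb), which held few regions, and sequence where reads cannot be placed uniquely. The part of these in the lower density beyond 500 kb was not tested. T-only regions fell off more steeply, from 2.30 per megabase at 5 to 10 kb to 0.819 beyond 500 kb, with a median distance of 77.8 kb, whereas shared peaks between genes had a median of 107 kb.

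By the strand of the gene with the nearest 5′ end, 6522 regions (64.1%) lay upstream. The rule left out gene bodies, which lie downstream of 5′ ends, and the upstream share of eligible sequence is not given here. In 5199 cases the genes on either side were transcribed in the same direction, 2881 regions lay between a pair of 5′ ends and 2089 between a pair of 3′ ends. The gene with the nearest 5′ end was one of the flanking genes for 9883 regions. Long non-coding RNA genes held 1293 summits (12.7%), beside 13.7% of T-only summits, and 557 summits lay within 5 kb of a long non-coding RNA 5′ end. Regions counted as intergenic here are therefore partly transcribed in the annotation.

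Averaged over eligible sequence there were 6.69 regions per megabase, or 1 per 149.5 kb, against 1.62 T-only regions per megabase. Chromosome 10 held most among the autosomes, at 9.37 per megabase, and chromosome 7 fewest, at 5.36. Chromosome X had 188 regions (1.65 per megabase) and chromosome Y had 1, the sex chromosomes also being low for T-only regions at 0.595 and 0. The cells were from a male line, with a single copy of each. The authors kept only ChIP reads that map uniquely, while eligible sequence was counted whether or not such reads can be placed in it. The parts of copy number and of mappability in these values were not tested.

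The regions were spread out, with few tight groups. The median gap between a summit and its nearest fellow region was 41.3 kb, and 1672 regions (16.4%) had another within 10 kb. Runs of at least 4 regions with successive summits at most 10000 bp apart, the definition of a dense cluster used here, numbered 4 and held 16 regions (0.157%). This count depended on the definition: a limit of 5000 bp or a minimum of 5 regions gave 0 clusters, a limit of 20000 bp gave 59, and a minimum of 3 regions gave 64 clusters with 196 regions. Leaving out regions with an alternating run of at least 20 purines and pyrimidines around the summit, a choice made afterwards, gave 1 cluster. The 16 clustered regions had a median fold enrichment of 6.68, below the 7.20 of all regions, 10 had a soft-masked summit base (a repeat in the genome annotation) and 5 held such a run. Clusters were thus groups of ordinary peaks, not of the strongest ones.

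The cluster at chr17:47982601-48005233, between *Foxp4* and *1700122O11Rik*, had fold enrichments of 9.96, 7.20, 6.40 and 5.19 at its summits. *Foxp4*, a forkhead gene, stood at 21.7 FPKM in NotoP diff against 8.27 in MP diff cells (log2 ratio 1.29 after adding 1 FPKM, the scale of all log2 ratios here). In the embryo it was at 18.9 FPKM in NotoP and 3.91 in MP at E8.5, and at 26.8 against 2.41 at E9.5. It was thus higher on the notochord side in all 3 pairs, while *1700122O11Rik* was listed at 0 in every library. The space between both genes was also the densest of those with at least 5 regions, holding 6 in 112 kb or 5.35 per 100 kb. The cluster at chr17:69025023-69042720 lay between *Tmem200c* and *Epb41l3*, with 33.0 kb to the *Epb41l3* 5′ end and enrichments of 4.50, 6.88, 6.47 and 8.39. *Tmem200c* was at 0.303 FPKM in NotoP diff cells against 0.744 in MP diff. The cluster at chr1:69486598-69497270, between *Erbb4*, an epidermal growth factor family receptor, and the zinc finger gene *Ikzf2*, had enrichments of 10.1, 6.24, 4.43 and 9.32 in 10.7 kb. Both genes were below 1 FPKM in NotoP diff cells, at 0.0915 and 0.749. The cluster at chr12:106173692-106191048 lay 163 kb from *Vrk1*, which encodes a serine/threonine kinase, with enrichments of 7.03, 4.80, 11.6 and 4.90 and a T peak within 10 kb. *Vrk1* was at 13.2 FPKM on the notochord and 22.9 on the mesoderm side of the culture. Flanking genes of these clusters thus ranged from silent to well expressed.

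Looser groups were looked for after the dense clusters had been counted. With summits at most 50 kb apart and at least 8 regions, 11 groups held 103 regions (1.01%). The largest had 12 regions in 237 kb, at chr10:98585039-98821945, 92.5 kb from the 5′ end of the calcium pump gene *Atp2b1* (22.1 FPKM in NotoP diff, 21.3 in MP diff). A second had 10 regions in 137 kb at chr8:126620415-126757564, between *Irf2bp2* (15.1 and 14.3 FPKM) and *Tomm20* (49.2 and 65.0 FPKM), with a median fold enrichment of 10.3. Another, beside *Sdk1* (3.35 and 0.776 FPKM), a gene of synaptic adhesion, had 11 regions in 211 kb. A further one held 9 regions in 205 kb beside *Btg1* (44.8 and 19.9 FPKM, log2 ratio 1.13), an antiproliferative gene. The largest number within any 100 kb was 7, reached among other places between *Eya1* and *Msc*, where the median enrichment was 10.6. *Eya1*, a transcriptional coactivator gene, was at 9.44 and 8.26 FPKM and the bHLH gene *Msc* was listed at 0 in both. None of the genes just named reached a 3-fold difference between NotoP diff and MP diff cells after 1 FPKM was added, although *Sdk1* passed it as listed. A group of 8 regions lay between *Med13l* and *Tbx3*, and *Tbx3*, at 0.178 against 9.10 FPKM, was lower in NotoP diff cells.

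Counted by the spaces between neighbouring genes, 3550 spaces held at least 1 region and 1809 of them exactly 1. The 193 spaces with at least 10 regions held 27.9% of all regions. The fullest was the 4668-kb space between *Tenm3* and *Aga*, with 41 regions and 0.878 per 100 kb. *Tenm3*, a teneurin adhesion gene, was at 9.60 FPKM in NotoP diff cells against 10.5 in MP diff. After that beside *Foxp4*, the densest spaces with at least 5 regions lay between *Ccdc172* and *Pnlip* (5.03 per 100 kb), *Zfand5* and *Gda* (4.79), *Arid5b* and *Cabcoco1* (4.60) and *Hivep1* and *Edn1* (4.59). *Ccdc172*, *Pnlip* and *Edn1* were listed at 0 in both NotoP diff and MP diff cells, and *Zfand5* (15.6 and 18.7 FPKM) and *Hivep1* (9.71 and 9.13) were at like levels. Further dense spaces were those from *Rpl37a* to *Igfbp2* (4.52), *Irf2bp2* to *Tomm20* (4.46), *Fam110c* to *Gm6993* (4.36), *Frem1* to *Ttc39b* (4.17) and *Smyd2* to *Prox1* (4.09). *Igfbp2*, *Frem1* and *Prox1* are taken up again among the genes higher in NotoP diff cells.

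The forkhead word TGTTTAC was enriched around the summits, but in a minority of regions. Within 50 bp of the summit, on either strand, 869 regions (8.54%, 95% Wilson interval 8.01 to 9.09) held it, against 1.49% of 15061126 consecutive windows of the same length over all eligible intergenic sequence. Intervals cover counting error only. Foxa2-only peaks inside genes held it in 9.59% of cases, peaks shared with T in 16.9% and T-only regions in 6.50%. The words TGTTTGC and TGTTTAT, which differ from it near their end, occurred in 8.55% and 12.8% of the regions against 2.03% and 3.40% of all windows. At least 1 of the 3 words was present in 2823 regions (27.7%), and TNTTTAC, which contains TGTTTAC, in 18.6% against 7.16%. The median offset of TGTTTAC from the summit was 17 bp, within the 50 bp searched. The core T-box word GGTGTGA was at the level of intergenic sequence, 1.19% against 1.25%, while T-only regions held it in 9.87% and shared peaks in 4.18%.

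Words of other factor families differed less from intergenic sequence. The E-box CAGCTG was present in 4.97% of regions against 3.23% of windows, CATTGTT, read by Sox factors, in 2.66%, a ratio of 1.27 to intergenic windows, and the Oct word ATGCAAAT in 1.34% against 0.958%. The Gata word AGATAAG (0.943% against 1.50%), the homeodomain word TAATTA (2.57% against 3.84%) and the CTCF word AGNGGGCNC (0.246% against 0.556%) were rarer in the regions than in intergenic sequence. TGANTCA (2.64% against 2.98%), CTTTGAT (1.91% against 2.18%) and GGAATGT (a ratio of 0.955), words of AP-1, Tcf/Lef and Tead factors, were near or below their background. Of all these words, those of the forkhead family thus stood farthest above intergenic sequence.

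TGTTTAC did not rise steadily with peak strength, whereas the 3 forkhead words together did. From the weakest to the strongest of 4 equal groups of regions by fold enrichment, TGTTTAC was present in 7.34%, 9.15%, 10.0% and 7.62%, and any of the 3 words in 22.9%, 28.0%, 29.7% and 30.3%. Any of them was present in 18 of the 100 weakest and 34 of the 100 strongest regions. The median fold enrichment was 7.33 with TGTTTAC and 7.20 without it. Of the 10 strongest regions, 1 held TGTTTAC and 5 held any of the 3 words. The strongest region with TGTTTAC, chr5:51039739-51040273, lay 528 kb from the 5′ end of *Ppargc1a*, a coactivator gene of mitochondrial biogenesis, with a fold enrichment of 23.4 and 2 copies, one of them 7 bp from the summit. The next but one, chr11:79826609-79827186 between *Rab11fip4* and *Utp6* (21.3), had a copy 15 bp from the summit. Both summits are shown as examples of strong regions that carry the word (mm10, plus strand, 50 bp on either side of the summit); capitals mark any of the 3 forkhead words on either strand.
beside Ppargc1a: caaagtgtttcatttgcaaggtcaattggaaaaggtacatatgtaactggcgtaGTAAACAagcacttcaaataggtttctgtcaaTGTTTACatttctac
beside Utp6: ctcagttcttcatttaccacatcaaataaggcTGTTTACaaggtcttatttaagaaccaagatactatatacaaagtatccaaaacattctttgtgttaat

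The most over-represented words were of another kind. When all 8192 words of 7 letters were ranked after the fact by their share in the regions over that in every 10th intergenic window, the first was GTGTGTA, present in 3577 regions (35.1%) against 2.34%, a ratio of 15.0. GTGTATA followed with 21.4% against 1.51%. ATACACA was present in 38.1% against 3.16%, CACACAC in 41.3% against 4.31% and ACACACA in 46.1% against 5.10%. Each is a stretch of alternating purines and pyrimidines counted on both strands, and these 5 words overlap one another. At least 1 of the 5 was present in 5341 regions (52.5%), in 49.6% of Foxa2-only peaks inside genes and in 44.1% of those at promoters, but in 18.3% of peaks shared with T and 7.52% of T-only regions. The words were therefore common in Foxa2-only peaks wherever they lay, and uncommon in peaks called for T from the same cultures.

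The share of regions with any of the 5 words grew with strength. From the weakest to the strongest of the 4 groups it was 38.4%, 53.0%, 55.7% and 62.8%, and among the 100 strongest regions 81 held at least 1 of the 5 words. The median fold enrichment was 7.71 with and 6.66 without them. Unbroken runs of at least 20 alternating purines and pyrimidines were found in 2968 regions, or 29.2%, at 14.9 times their share of intergenic windows, and in 26.1% of Foxa2-only peaks inside genes, 2.67% of shared peaks and 0.122% of T-only regions. In 1389 of those 2968 regions the summit itself lay in the run.

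TGTTTAC was less frequent in regions with repeat words, and many regions held both kinds of word. It was present in 254 of the 5341 regions with any of the 5 repeat words (4.76%) and in 615 of the 4839 without them (12.7%, 95% interval 11.8 to 13.7). Any of the 3 forkhead words was present in 1214 (22.7%) and 1609 (33.3%). Each of these 3 words holds TTT and cannot lie within an alternating stretch, so repeat words leave less of the window for them. The lower shares are thus partly fixed by construction. No share for intergenic windows with repeat words is given here. In regions without the repeat words, TGTTTAC lay within 10 bp of the summit in 35.9% of those that held it, and its share was 9.25%, 13.7%, 15.7% and 13.6% from the weakest to the strongest group. Regions without repeat words lay a median of 123 kb from the nearest 5′ end, and those with them 97.6 kb. Neither kind of word was present in 3230 regions (31.7%). The summit base was soft-masked as a repeat in 4849 regions (47.6%), against 42.6% of intergenic windows, 41.7% of Foxa2-only peaks inside genes, 15.2% of shared peaks and 14.2% of T-only regions. Of regions with repeat words, 73.9% had a masked summit, and of those without, 18.7%. Mean GC content was 38.9% in the windows of the regions and 40.7% in intergenic sequence. Why these repeats carry Foxa2 peaks was not tested: no input or control antibody library of these cultures was analysed here.

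The 10 strongest regions show this composition. The first, chr17:7585479-7586076 with a fold enrichment of 25.4, lay 200 kb upstream of *Unc93a2* and had neither a forkhead word nor a long run. The second, chr13:99295979-99296517 (25.0), lay between *Zfp366*, listed at 0 in all 9 RNA libraries, and *Ptcd2* (14.6 FPKM in NotoP diff, 16.9 in MP diff). The fifth, chr6:34330064-34330664 (23.8), lay 12.9 kb upstream of the aldose reductase gene *Akr1b3* (18.1 and 36.4 FPKM), and the eighth, chr15:86045501-86046091 (23.4), lay between the planar polarity gene *Celsr1* (log2 ratio 1.46) and *Gramd4* (3.17 and 4.43 FPKM). In all, 8 of the 10 summits were soft-masked and 4 windows held a run of at least 20. Of the genes with FPKM beside the other strong regions, *Man2a1*, which encodes a mannosidase, stood at 64.5 FPKM in NotoP diff cells against 21.0 in MP diff. *Meis2* stood the other way, at 6.33 and 24.8 FPKM. The genes beside the strongest peaks thus had no common direction. The summit windows of these 4 regions show 1 peak without and 3 with a long alternating run; capitals mark the longest run in each.
rank 1, beside Unc93a2: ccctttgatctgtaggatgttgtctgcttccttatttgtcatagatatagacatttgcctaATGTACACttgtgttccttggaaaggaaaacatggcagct
rank 2, beside Ptcd2: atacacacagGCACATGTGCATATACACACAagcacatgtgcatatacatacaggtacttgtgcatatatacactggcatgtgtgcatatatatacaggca
rank 5, beside Akr1b3: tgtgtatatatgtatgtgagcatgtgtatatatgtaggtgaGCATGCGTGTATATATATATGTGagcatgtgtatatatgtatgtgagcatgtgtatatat
rank 8, beside Gramd4: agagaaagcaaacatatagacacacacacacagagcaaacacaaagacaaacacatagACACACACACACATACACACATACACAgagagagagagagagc

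Genes flanking the regions differed between the cultures more often than genes at large. The nearest protein-coding gene on each side gave 5879 of 21951 genes, 5432 of them with FPKM values, out of 19654 genes tested. Of the flanking genes, 168 (3.09%, 95% interval 2.66 to 3.59) were at least 3-fold higher in NotoP diff cells than in their MP diff counterparts, against 1.76% of all genes tested. At least 3-fold lower were 56 (1.03%), against 0.473%. Both directions were thus more frequent beside the regions, and most flanking genes belonged to neither. In the embryo, 126 flanking genes (2.32%) were at least 3-fold higher in NotoP than in MP at both stages, against 1.46%, and 13 (0.239%) were at least 3-fold lower, against 0.265%. At least 1 FPKM in NotoP diff cells was reached by 3164 flanking genes (58.2%), against 55.5%. Of 8823 regions with FPKM for both neighbours, 3374 (38.2%) had both at 1 FPKM or more and 1589 had neither.

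The share of higher genes depended on the constant and the fold used, and so did its background. With 0.1 FPKM added it was 10.2% against 7.05%, and with a 2-fold limit 7.93% against 4.85%. For the lower genes these settings gave 3.76% against 2.64% and 2.72% against 1.59%, and the embryonic share was 11.3% against 9.78% at E8.5 alone and 3.98% against 2.82% at E9.5 alone. MP at E8.5 was the library with the fewest genes at 1 FPKM or more, 45.2% of those tested, and its part in the E8.5 share was not tested. The flanking share stayed above its background under each of these settings. Genes flanked by T-only regions, which overlap with those flanked by Foxa2-only regions, had 3.84% at least 3-fold higher and 1.29% lower in NotoP diff cells. The excess was thus not particular to Foxa2-only regions.

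Space beside a gene went with both measures. Genes with 0 regions had a median of 29.3 kb of intergenic space and 1.24% were at least 3-fold higher in NotoP diff cells. With 1 region these values were 77.7 kb and 2.50%, with 2 to 4 regions 204 kb and 3.23%, with 5 to 9 regions 593 kb and 4.35%, and with 10 or more regions 1414 kb and 3.75%. Lower genes went from 0.260% without regions to 3.09% with 10 or more. Within bins of space, the share of higher genes with and without regions was 2.05% and 1.19% below 50 kb (where their median space still differed, 33.6 against 17.8 kb), 3.13% and 1.38% at 50 to 200 kb, and 3.77% and 0.896% at 200 to 500 kb. It was 2.78% and 2.96% at 500 to 1000 kb, and 3.29% and 1.14% beyond, where 135 and 88 genes had no regions. The difference was thus widest at 200 to 500 kb (46 of 1220 genes against 5 of 558). At 500 to 1000 kb the shares were near equal, and 18 of 648 genes against 4 of 135 are too few to read a direction. For lower genes the shares with and without regions were 0.128% and 0.165% below 50 kb, 0.726% and 0.425% at 50 to 200 kb, 1.15% and 0.717% at 200 to 500 kb, 1.70% and 0.741% at 500 to 1000 kb and 2.43% and 0% beyond. Lower genes thus became more frequent with space in genes with regions. Without regions they numbered 16 of 3766 genes at 50 to 200 kb and 4 of 558 at 200 to 500 kb. At 500 to 1000 kb they were 1 of 135 and beyond that 0 of 88. Counts this small do not settle whether the shares differ with and without regions. The groups also differed in expression as such, most clearly from 50 kb on. The share of genes at 1 FPKM or more in NotoP diff cells was 54.1% with and 57.7% without regions below 50 kb, 59.8% and 48.8% at 50 to 200 kb, 60.6% and 44.3% at 200 to 500 kb, 56.9% and 33.3% at 500 to 1000 kb and 54.6% and 39.8% beyond, and the part of that difference in the shares of higher and lower genes was not tested.

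*Shh*, the hedgehog ligand secreted by the notochord and floor plate, had 9 regions, all in the 729-kb space upstream between it and *Rnf32*. *Shh* stood at 30.2 FPKM in NotoP diff cells and was listed at 0 in the other cultures. In the embryo it was at 468 and 607 FPKM in the earlier and the later trunk notochord, at 161 and 178 in NotoP and at 0 and 0.343 in MP, so that notochord libraries stood above the others at every stage. No region lay within 215 kb of its 5′ end, and the farthest lay 720 kb away. The strongest, chr5:28795109-28795729, 328 kb upstream and within a long non-coding RNA gene, had a fold enrichment of 15.0, and the next, chr5:29167875-29168593 at 701 kb, had 13.7 with an alternating run of 57 bases. A T peak lay 15.4 kb from the strongest. Of the 9, 1 held TGTTTAC, the one at chr5:29187038-29187534 with an enrichment of 5.71. *Shh* overlaps 2 other annotated genes, and its FPKM may include reads from them. The same limit holds for *Cobl*, *Prox1*, *Tbx3*, *Osr1*, *Dact1*, *Epha7*, *Tenm3*, *Pcdh17*, *Zfp608*, *Map3k7*, *Cntnap5b* and *Zeb2*, which also overlap other annotated genes.

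*Foxa2* itself had 16 regions over 649.6 kb on the *Pax1* side and 348 kb on the *Sstr4* side. In NotoP diff cells its 95.5 FPKM include the transgene, but the embryonic libraries had no such transgene. They held 57.0 FPKM in NotoP against 1.25 in MP at E8.5 and 45.6 against 0.860 at E9.5. Trunk notochord held 71.2 and 35.6 FPKM. The strongest region, chr2:147813469-147813989, lay 233 kb downstream of the 5′ end with a fold enrichment of 17.6 and a TGTTTGC, and the next, chr2:148109087-148109614, lay 62.4 kb upstream with 16.6 and a TGTTTAC. The nearest, chr2:148040168-148040596, lay 6.51 kb downstream of the 5′ end, past the end of the gene, with 8.99 and a TGTTTAC, and a T peak was 2.97 kb from it. Regions thus flanked the gene on both sides, 12 downstream and 4 upstream, and 5 T-only regions lay in the same spaces. *Foxa1*, its close relative, had 0 regions in 60.6 kb of space. Its FPKM was 19.2 on the notochord side of the culture and 0.0955 on the mesoderm side. A count of 0 regions does not cover Foxa2 peaks at promoters, inside genes or shared with T, which were not counted by gene here. The paper names putative enhancers for *Foxa1* and *Noto*.

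*Nog* and *Chrd* encode secreted BMP antagonists of the node and notochord. *Nog* had 8 regions, 5 on the downstream and 3 on the upstream side, between 19.3 and 198 kb from its 5′ end. It stood at 40.1 FPKM in NotoP diff against 1.83 in MP diff cells (log2 ratio 3.86), at 75.1 in NotoP and 0 in MP at E8.5 and at 37.2 and 1.67 at E9.5. Its strongest region, chr11:89354910-89355357, lay 52.8 kb upstream with a fold enrichment of 13.2. *Chrd* had 2 regions, 12.7 and 72.5 kb downstream of its 5′ end, with enrichments of 7.00 and 9.59 and alternating runs of 29 and 35 bases. It stood at 28.5 against 0.186 FPKM, a log2 ratio of 4.64.

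*T* had 1 region, chr17:8427371-8427726, 6.90 kb upstream of its 5′ end in the 10.9-kb space to *T2*, with a fold enrichment of 6.00. It was a CA repeat with an alternating run of 40 bases, and a T peak lay 6.16 kb away. *Noto*, the notochord homeobox gene, had 0 regions in 52.4 kb of space and stood at 22.5 FPKM in NotoP diff cells, at 152 and 164 in NotoP and at 0 in MP. Notochord genes thus ranged from 0 to 33 regions, *Noto* and *Foxa1* having the least space around them of the genes described one by one. Among genes named in the lists below, *Foxj1*, *Lefty1* and *Nodal* had 1 region each in 24.4, 30.9 and 37.6 kb, while *Dand5* had 0 in 23.8 kb. The summit windows of the strongest regions beside *Shh*, *Foxa2*, *Nog* and *T*, and beside *Sox9*, which was added after its values were seen, are given for comparison of their composition; capitals mark any of the 3 forkhead words.
Shh: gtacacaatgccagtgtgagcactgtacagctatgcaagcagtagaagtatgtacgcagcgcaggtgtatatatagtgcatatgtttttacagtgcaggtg
Foxa2: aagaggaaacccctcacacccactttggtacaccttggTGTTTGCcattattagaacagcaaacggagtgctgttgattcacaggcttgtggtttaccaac
Nog: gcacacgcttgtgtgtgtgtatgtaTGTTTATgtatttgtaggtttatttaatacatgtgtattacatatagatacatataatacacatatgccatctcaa
T: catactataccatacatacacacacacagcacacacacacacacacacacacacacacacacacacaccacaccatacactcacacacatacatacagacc
Sox9: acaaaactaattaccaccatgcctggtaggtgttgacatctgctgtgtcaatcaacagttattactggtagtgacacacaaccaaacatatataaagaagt

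*Sox9*, which directs cartilage and notochord sheath genes, had 33 regions in 2162 kb of space, 22 upstream and 11 downstream, more than any other gene named here that was at least 3-fold higher in NotoP diff cells except *Epha7*. It stood at 47.1 FPKM in NotoP diff, 1.69 in NMP diff and 1.56 in MP diff cells (log2 ratio 4.23), at 51.9 in NotoP and 0 in MP at E8.5, and at 30.0 and 0.662 at E9.5. Trunk notochord had more, 74.8 and 92.9 FPKM. Its strongest region, chr11:112536895-112537459, lay 245 kb upstream with a fold enrichment of 17.0. None of its regions held TGTTTAC, while 9 held any of the 3 forkhead words and 10 an alternating run of at least 20. Over all regions the shares were 8.54% with TGTTTAC, 27.7% with any forkhead word and 29.2% with such a run. The 9 and 10 of 33 were thus near the shares over all regions. A desert around a developmental gene held many Foxa2 peaks.

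Of 1142 flanking genes with at least 5 regions and FPKM values, 47 (4.12%, against 1.76% of all genes tested) were at least 3-fold higher in NotoP diff cells. Besides *Foxa2*, *Shh*, *Sox9* and *Nog*, those with the largest log2 ratios were *Arl4a* (4.31), *Cobl* (4.22), *Prox1* (3.80), *Igfbp2* (3.70), *Moxd1* (3.20) and *Frem1* (3.12). *Arl4a*, an Arf-like GTPase gene, had 15 regions, all downstream on the side of *Etv1*, and stood at 63.6 FPKM in NotoP diff against 2.26 in MP diff cells and at 62.3 against 3.51 in NotoP and MP at E8.5. *Cobl*, an actin nucleator gene, had 7 regions and stood at 35.4 against 0.958 FPKM, and at 46.4 against 0.660 at E9.5. Both were therefore higher in cultured and embryonic notochord progenitors. *Prox1*, a homeobox gene of endoderm and lymphatic cells, had 19 regions within 458 kb, the strongest at chr1:190489219-190489862 with a fold enrichment of 20.3, and 0 T-only regions. It stood at 29.1 against 1.17 FPKM in culture, but at 17.6 against 13.2 in NotoP and MP at E8.5 and 8.87 against 0.995 at E9.5, so the embryonic difference at E8.5 was small.

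*Igfbp2*, an insulin-like growth factor binding protein gene, had 5 regions within 98.4 kb upstream, with a median fold enrichment of 9.34. It stood at 99.2 FPKM in NotoP diff, 42.4 in NMP diff and 6.72 in MP diff cells, and at 289 against 22.7 in NotoP and MP at E9.5. *Frem1*, a basement membrane gene, had 7 regions within 163 kb upstream, 0 of them with TGTTTAC or with an alternating run of at least 20. Over all regions these shares were 8.54% and 29.2%, and 7 regions are too few to set beside them. *Frem1* stood at 32.4 against 2.84 FPKM in culture, and at 43.4 against 7.63 at E8.5. *Moxd1*, a monooxygenase gene, had 6 regions and stood at 12.7 against 0.494 FPKM in culture, and at 22.3 in NotoP against 0 in MP at E8.5. *Igfbp2*, *Frem1*, *Moxd1* and *Prox1* had no T-only region in their spaces. Of the 10 genes with the largest ratios, 9 were also at least 3-fold higher in NotoP than in MP at both embryonic stages, the exception being *Prox1*. Over all genes tested this share was 1.46%, but the 10 were picked for high ratios in culture and at least 5 FPKM. The share among all genes with such culture ratios is not given here.

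Among the 1142 genes with at least 5 regions, 24 were at least 3-fold lower in NotoP diff cells, 1.45% of those with 5 to 9 regions and 3.09% of those with more, against 0.473% of all genes tested. *Id2*, an inhibitor of bHLH factors and a BMP target, stood at 2.14 against 64.6 FPKM (log2 ratio −4.38) with 10 regions, all upstream. *Tbx3*, a relative of *T*, stood at 0.178 against 9.10 FPKM (−3.10) with 25 regions, 16 of them with an alternating run of at least 20 and 0 with TGTTTAC. *Hs3st3b1*, a heparan sulphate sulfotransferase gene, stood at 1.90 against 21.1 FPKM (−2.93) with 11 regions, 7 of them with any forkhead word. Over all regions, 29.2% held an alternating run of at least 20, 8.54% TGTTTAC and 27.7% any forkhead word. With so few regions per gene, these counts are not read further. *Osr1*, a gene of intermediate and lateral mesoderm, stood at 0.363 against 7.78 FPKM (−2.69) with 6 regions, and *Dact1*, a modulator of Wnt signalling, at 9.12 against 59.6 FPKM (−2.58) with 8. Of these 5, picked for low ratios in culture, *Osr1* alone was also at least 3-fold lower in NotoP than in MP at both stages. Over all genes tested this share was 0.265%. The regions thus also lay beside genes that were lower in sorted NotoP diff cells.

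Of the 10 genes with most regions, all in gene deserts, only *Epha7* and *Sox9* passed 3-fold, each being higher in NotoP diff cells. Over all genes tested 1.76% were at least 3-fold higher, and of those with 10 or more regions 3.75%. The 10 genes are too few to set a share beside these. *Epha7*, an ephrin receptor gene, had 41 regions in 5463 kb of space and stood at 19.5 against 5.01 FPKM (log2 ratio 1.77), the only one besides *Sox9* among the 10 past 3-fold. *Aga* and *Tenm3* shared the same 41, *Pcdh17* had 40 at 0.189 against 0 FPKM, *Zfp608* had 38 at 13.5 against 15.3, *Map3k7* and *Pik3c3* had 35 each, *Cntnap5b* had 34 and was listed at 0 in all 9 libraries, and *Zeb2* had 32 at 13.8 against 18.2 FPKM. Their space was at least 2162 kb, the value for *Sox9*. A large number of Foxa2 regions was therefore seen beside silent, even and notochord-enriched genes alike.

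Gene lists show the same mixture. In all, 27.6% of all genes tested had a region beside them and the median space was 44.7 kb. Of 14 notochord transcription factors, 10 were flanked, with 76 region and gene pairs, and 5 of the 10 were at least 3-fold higher in NotoP diff cells: *Foxa2*, *Sox9*, *T* (log2 ratio 3.81), the ciliogenesis factor *Foxj1* (3.57) and the LIM homeobox gene *Lmx1a* (3.35). Of the 4 without regions, *Noto* (4.56), *Foxa1* (4.20) and *Mnx1* (3.36) were higher too. Of 17 secreted signals and antagonists, 11 were flanked and 6 of them higher: *Shh*, *Chrd*, *Nog*, *Nodal* (3.27), *Bmp7* (2.79) and *Lefty1* (1.59); *Wnt5a* was lower (−1.61). *Dand5* (3.41), without a region, was higher too. *Bmp7* had 5 regions, *Wnt5a* 3, and *Nodal* and *Lefty1* 1 each. High notochord expression was thus seen with and without a Foxa2-only region between genes nearby, other Foxa2 peaks not being counted.

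Of 12 hedgehog receptors and effectors, 6 were flanked, and of these *Ptch1* (4 regions, log2 ratio 2.24), the receptor and target gene, was higher; *Gli1*, without a region, had 2.25. *Gas1*, a co-receptor gene, had 16 regions and stood at 7.42 against 11.1 FPKM, and *Gli2* had 12 at 4.74 against 5.66. Of 18 sheath and matrix genes, 7 were flanked and *Igfbp5* (6.23, 2 regions) and *Frem2* (2.64, 2 regions) were higher, as was *Cthrc1* (2.88) with 0 regions. Of 20 guidance ligands and receptors, 18 were flanked, with 230 pairs and a median space of 963 kb. Higher among them were *Sema3e* (3.10, 4 regions), *Slit2* (2.91, 20 regions), *Epha7* and *Efnb2* (1.59, 30 regions), and lower were the neuropilin genes *Nrp1* (−2.55, 12 regions) and *Nrp2* (−2.01, 2 regions). Without a region, the netrin gene *Ntn1* (1.69) was higher and its receptor gene *Unc5c* (−2.89) lower. Guidance genes thus had the most regions of any list, in the largest space.

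Of 19 endoderm and anterior mesendoderm genes with FPKM, 16 were flanked, with 74 pairs, and *Krt8* (3.83), *Epcam* (2.43) and *Trh* (2.29) were higher, while *Sox17* (2.45) and *Krt18* (4.67) were higher without a region. *Apob* had 18 regions and stood at 0.0945 FPKM against 0, *Cxcr4* had 12 at 6.52 against 11.7 and *Otx2* had 10 at 0.742 against 0.701. Of 11 floor plate and ventral neural tube genes, 10 were flanked, and *Foxd1* (2.79, 3 regions) was the 1 that was higher. Of 14 neural and neuromesodermal genes, 10 were flanked, including *Sox2* with 15 regions at 9.24 against 3.49 FPKM and *Irx3* with 12 at 2.34 against 2.52, and 0 passed 3-fold in either direction. Of 18 paraxial mesoderm genes, 9 were flanked, with 29 pairs, and *Pcdh8* (−1.75, 2 regions) and *Osr1*, which is on this list but marks chiefly intermediate and lateral mesoderm, were lower and none higher. Without a region, *Gbx2* (−2.15) and *Mesp2* (−1.98) were lower too. Of 10 pluripotency genes, 6 were flanked and 0 passed 3-fold, *Klf4* having 10 regions at 0.912 against 1.06 FPKM. Regions were thus present beside endodermal and neural genes that were low or even in NotoP diff cells as well as beside notochord genes.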

How the data were processed

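Of this series, ChIP-seq of Foxa2 and T in unsorted NotoP diff cultures and RNA-seq of 9 populations were used, and ATAC-seq and histone marks were not analysed here. The authors aligned ChIP reads to mm10 with Bowtie 1.3.1 and ran MACS3 3.0.0b1 for peaks at a q cutoff of 0.1. The deposited peak lists give the fold enrichment at the summit, a ratio over the local background of the peak caller; whether a control library entered it is not stated in the methods. They also give the deposited −log10 q of each peak, from the same caller. The authors aligned RNA reads with TopHat2 2.1.1 and Bowtie 1.2.2, removed duplicates by molecular identifiers and computed FPKM over RefSeq models with Cufflinks 2.2.1. The files used list no read counts, and library totals were not used here, so no interval is given for FPKM.

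Peaks were compared with GENCODE vM21 genes and the mm10 sequence in Python 3.11.15 with numpy 2.4.6, pandas 2.3.3 and scipy 1.17.1, and the code was tested on simulated data. Flanking genes were the nearest protein-coding gene bodies on either side, joined to FPKM by symbol. Words of 7 letters were compared with every 10th intergenic window. Shares carry 95% Wilson intervals, and the interval of the median distance is by order statistics. Alternatives changed the peak threshold, gene model, distance, cluster definition, word, added constant and fold.

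Named genes came from 10 lists (notochord transcription factors, secreted signals and antagonists, hedgehog receptors and effectors, sheath and matrix, guidance, endoderm and anterior mesendoderm, floor plate and ventral neural tube, neural and neuromesodermal, paraxial mesoderm, pluripotency). Others lay beside the dense clusters or the 10 strongest regions, were the 10 with the most regions, or had at least 5 regions and 5 FPKM and the 10 largest or 5 smallest ratios of NotoP diff over MP diff. The regions and lists were chosen with earlier results of these data known. Genes of looser groups, of dense spaces, at the distance threshold, of the highest −log10 q and of the strongest summits with TGTTTAC were chosen after their values were seen, as were the 5 repeat words. Of the densest spaces, 1 is not reported here.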

Additional observations from a re-analysis of the deposited data

How the results depend on the processing

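Of 108 changes of setting, 14 of them chosen after seeing the data, 67 left a value within its counting interval or a count within 1.5 times the reported one and 41 moved it. The number of regions, 10180, was within that factor throughout, at 8804 outside genes of every type and, lowest, at 7212 without alternating runs. No paired test was run: each condition was 1 library, and NotoP and MP were set side by side at each embryonic stage without one. Requiring 500 bp to the nearest T peak, or summits outside genes of every type, left the other values within their intervals.

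With the 5′ ends of all protein-coding transcripts, the median distance was 104 kb and 50.9% of regions lay beyond 100 kb. With at least 10000 bp to a 5′ end these were 122 kb and 55.2%, by construction larger. With peaks at q of at most 0.001, the median fold enrichment was 7.64 and 48.9% of summits were soft-masked. Counting windows with at least 50% soft-masked bases gave 46.1%.

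Dense clusters were the least stable result. With gaps of at most 5000 bp or at least 5 regions there were 0, holding 0% of regions. Gaps of at most 20000 bp gave 59 (2.52%), at least 3 regions gave 64 (1.93%), and the later choice of 50000 bp with at least 8 regions gave 11 (1.01%).

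TGTTTAC was present in 5.16% of regions within 25 bp and in 12.4% within 100 bp. TNTTTAC was present in 18.6% and any of the 3 forkhead words in 27.7%, each being a wider match.

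Leaving out regions with an alternating run of 20 bases, also a later choice, gave a median distance of 115 kb, 53.5% beyond 100 kb, a fold enrichment of 7.00, 1 cluster (0.0555%), TGTTTAC in 10.8% and soft-masked summits in 30.4%, now below the 42.6% of intergenic windows. The shares of flanking genes stayed within their intervals.

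Expression at 5 FPKM or more was reached by 42.2% of flanking genes. The share at least 3-fold higher in NotoP diff cells was 3.81% for genes with the nearest 5′ end alone, 10.2% (7.05%) with 0.1 FPKM added, 7.93% (4.85%) at 2-fold and 5.11% (3.06%) among genes with at least 1 FPKM in a library compared, with the share of all such genes in parentheses. The share lower was 3.76% (2.64%), 2.72% (1.59%) and 1.70% (0.825%) under the last 3 settings. The share higher in NotoP at both stages was 5.85% (4.33%), 5.28% (3.74%) and 3.69% (2.46%), and it was 11.3% (9.78%) at E8.5 alone and 3.98% (2.82%) at E9.5 alone. Scaling the libraries to a common median ratio was run for the main shares only. It gave 3.15% (1.78%) higher and 0.994% (0.463%) lower in NotoP diff cells, and 2.37% (1.47%) higher in NotoP at both stages, each within its interval. With NMP diff in place of MP diff, 3.11% (1.49%) were higher and 1.27% (0.885%) lower, so the excess of lower genes was smaller than against MP diff. The causes of these shifts were not tested. Depth limits which peaks were called and how low an FPKM can be read, and read totals were not used here.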
